A study of Mus musculus with 6 samples.

Results

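The genes described here code for plasma and membrane proteins that restrain clotting, dissolve a clot or control its dissolution. They are Serpinc1, Serpind1, Serpinf2, Plg, Plat, Plau, Plaur, Proc and Pros1, chosen by name, and all 9 were found among the 22488 gene rows of each count table. The serpins were matched by their Entrez identifier, because symbols in the tables were cut at 8 characters. RNA came from whole livers of male C57BL/6 mice of wild-type genotype, 6 to 8 weeks old, which were fasted for 16 h. The LPS group (n = 3 samples) was injected into the abdominal cavity with 6 mg/kg of lipopolysaccharide, the endotoxin of Gram-negative bacteria, and the control group (n = 3 samples) with 200 µl of the salt buffer HBSS. The treatment field of the control labels reads as no treatment, and the sources used here do not give the time between injection and sampling. Nothing in the labels says that each library came from a separate mouse, so p-values measure the spread between these 6 samples, which may be technical.

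As background, clotting ends with thrombin, which turns fibrinogen into fibrin. Its brakes are of different kinds: serpins such as antithrombin (Serpinc1) and heparin cofactor II (Serpind1) trap thrombin and related proteases, and the protein C pathway (Proc, with its cofactor protein S, Pros1) destroys the activated cofactors V and VIII. Fibrin is removed by plasmin, which is cut from plasminogen (Plg) by the tissue activator (Plat) or by urokinase (Plau) held on its receptor (Plaur). Antiplasmin (Serpinf2) blocks plasmin. Hepatocytes secrete most of these plasma proteins, whereas the activators and the urokinase receptor are better known from endothelial and myeloid cells.

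LPS livers held less RNA of 3 clotting inhibitors and more RNA of antiplasmin and of the urokinase receptor. Values are CPM, counts scaled to a common library size by edgeR's TMM factors. Serpind1 stood at 12.5% of its control level, Proc at 43.1% and Serpinc1 at 55.4%, while Serpinf2 was 1.65-fold and Plaur 33.5-fold higher. Plg, Pros1 and Plat did not pass the test, and Plau had too few counts to be tested. Of the 8 tested genes 2 rose and 3 fell at an adjusted p under 0.05 (edgeR quasi-likelihood test, Benjamini-Hochberg adjustment). Over all 12078 tested genes 62.3% passed that threshold, 31.3% higher and 31.0% lower in LPS livers, so the number of calls among these 8 is near the background. The values of LPS livers were apart from those of control livers in the 5 called genes and in 67.4% of all tested genes. The median log2 fold change of the 8 tested genes was -0.23, and that of all tested genes 0.01.

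**Figure D1:**
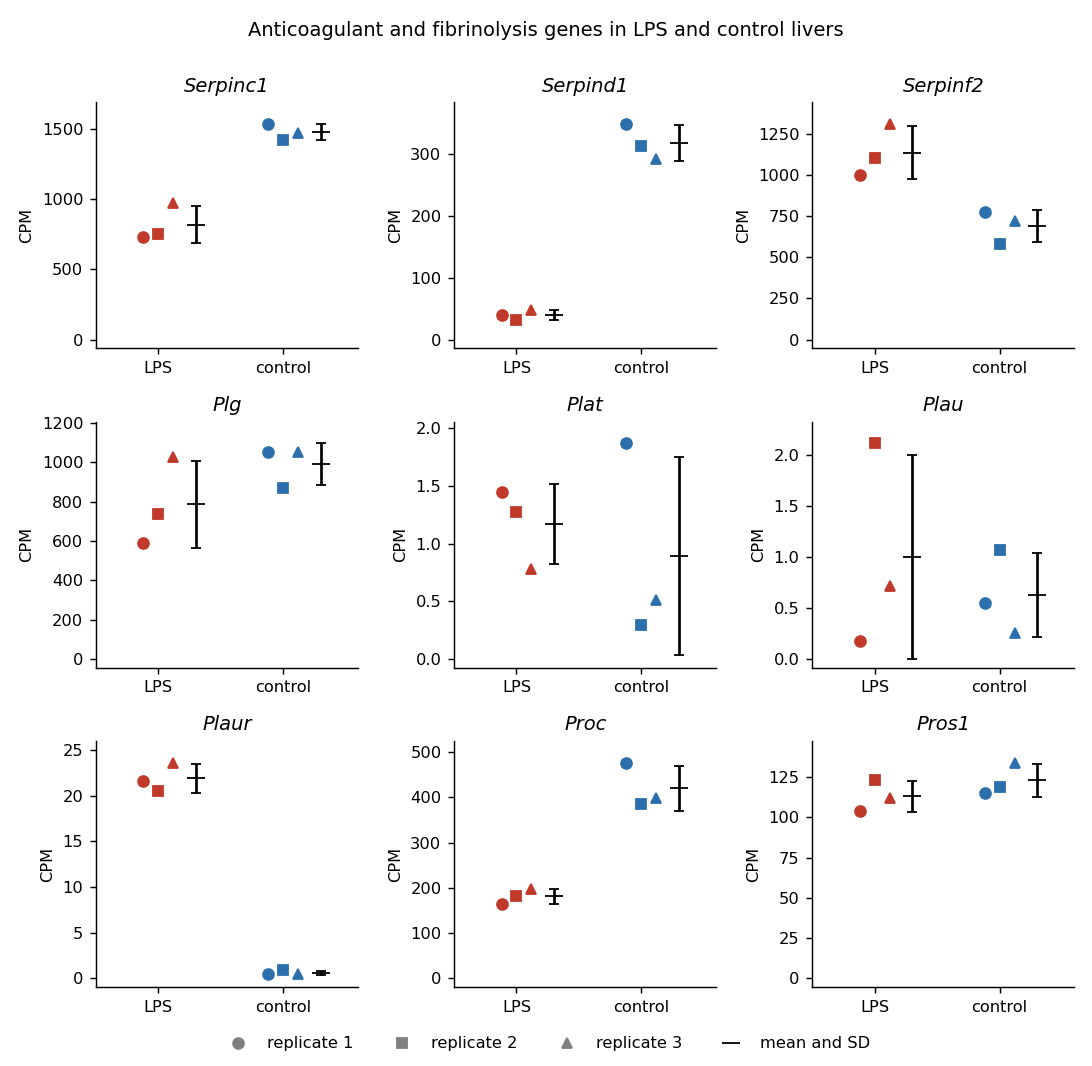
CPM (library-scaled counts, by TMM; linear axes starting just under 0, with a different range in each panel) of the 9 genes in 3 LPS and 3 control livers; symbols mark replicates 1 to 3, and black bars give the group mean and SD. The 3 LPS values of Plaur lie at 20.5 to 23.6 CPM and its control values at 0.876 CPM or less, while the groups overlap for Plg, Plat, Plau and Pros1.

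The promoter windows of 4 called genes are shown, since 2 of them rose and 2 fell. Each runs from 250 bases before to 50 bases after the start that RefSeq gives on GRCm38.p6, and 5 of the 9 genes had a window. For Plaur this start lies inside the span of its RefSeq gene record, which begins farther upstream, at 24460937. Plaur lies at chr7:24462233-24462532 on the plus strand, Serpinf2 at chr11:75439452-75439751 on the minus strand, Serpinc1 at chr1:160978333-160978632 on the plus strand and Serpind1 at chr16:17331121-17331420 on the plus strand. Capitals mark matches to any of 6 motifs searched on both strands.
Plaur: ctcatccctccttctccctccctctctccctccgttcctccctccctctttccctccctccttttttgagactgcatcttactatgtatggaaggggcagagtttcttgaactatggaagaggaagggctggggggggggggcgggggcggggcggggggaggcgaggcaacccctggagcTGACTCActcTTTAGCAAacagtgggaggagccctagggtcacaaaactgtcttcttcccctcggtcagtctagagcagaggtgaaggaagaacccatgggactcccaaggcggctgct
Serpinf2: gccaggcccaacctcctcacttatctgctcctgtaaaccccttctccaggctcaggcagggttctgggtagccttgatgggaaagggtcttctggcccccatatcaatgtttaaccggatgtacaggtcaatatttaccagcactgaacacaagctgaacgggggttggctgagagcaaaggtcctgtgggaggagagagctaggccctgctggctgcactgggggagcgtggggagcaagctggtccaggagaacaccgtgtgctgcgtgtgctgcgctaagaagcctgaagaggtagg
Serpinc1: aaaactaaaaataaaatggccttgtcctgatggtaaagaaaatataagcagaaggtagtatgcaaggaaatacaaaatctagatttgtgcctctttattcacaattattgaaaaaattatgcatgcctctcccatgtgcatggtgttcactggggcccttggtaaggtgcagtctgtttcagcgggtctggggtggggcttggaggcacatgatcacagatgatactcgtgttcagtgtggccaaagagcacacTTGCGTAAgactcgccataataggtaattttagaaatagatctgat
Serpind1: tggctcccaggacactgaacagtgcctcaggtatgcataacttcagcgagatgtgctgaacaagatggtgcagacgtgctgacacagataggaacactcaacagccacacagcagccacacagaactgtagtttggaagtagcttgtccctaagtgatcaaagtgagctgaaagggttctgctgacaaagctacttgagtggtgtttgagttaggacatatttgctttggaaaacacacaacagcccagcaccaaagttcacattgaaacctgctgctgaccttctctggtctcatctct
The motif letters were TGACTCA for AP-1 factors, TTGCNNAA for C/EBP factors, TTCNNNGAA for STAT factors and CAAAGTCCA for the hepatocyte factor HNF4. The NF-kB consensus and the core promoter element TATAAA were searched as well, and no matches of different motifs overlapped in the windows shown. The Plaur window held the AP-1 letters from base -69 and the C/EBP letters, on the other strand, from base -59, counted from the start with the leftmost base given. The Serpinc1 window held the C/EBP letters from base 5 after the start. None of the 6 motifs matched in the windows of Serpinf2 and Serpind1. Of 32851 windows of the same length, 5.20% held the AP-1 letters, 10.8% the C/EBP letters, 8.30% the STAT letters and 8.46% the NF-kB consensus. The share was 0.475% for the HNF4 letters and 13.6% for the core promoter element. A match is a stretch of letters and not a measured binding site.

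Both thrombin-trapping serpins among the 9 genes fell, and other serpins in the partner lists are not covered by this. Serpind1 (chromosome 16, 17331371 to 17343574, plus strand) had 39.4, 31.2 and 48.6 CPM in LPS replicates 1, 2 and 3, against 349, 313 and 293 CPM in control replicates 1, 2 and 3. The lowest control value was 6.02 times the highest LPS value. The log2 fold change was -3.00 (SE 0.17, adjusted p = 3.428e-09), and 282 of the 12078 tested genes had a lower one. Serpinc1 (chromosome 1, 160978583 to 161002543, plus strand) had 730, 753 and 971 CPM in LPS livers, against 1536, 1425 and 1472 CPM in control livers. Its groups were apart, with LPS replicate 3 above the other LPS livers, and its log2 fold change was -0.85 (SE 0.14, adjusted p = 1.473e-04).

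Serpind1 was also set against Serpinc1 within single libraries, where a ratio of 2 counts does not depend on scaling. There were 0.054, 0.0415 and 0.050 Serpind1 counts per Serpinc1 count in LPS replicates 1, 2 and 3, against 0.228, 0.220 and 0.199 in control replicates. The difference of the mean log2 ratios was -2.16, with -4.37 ± 0.20 in LPS and -2.22 ± 0.10 in control livers (SD, n = 3 each). Serpinc1 in turn was set against F2, the thrombin precursor that antithrombin guards against, and not against genes of the other proteases of clotting. Each F2 count was matched by 0.616, 0.580 and 0.640 Serpinc1 counts in LPS livers, against 0.958, 0.967 and 0.919 in control livers, a difference of -0.63 in mean log2 ratio. F2 itself averaged 1333 ± 170 CPM in LPS and 1560 ± 74.0 CPM in control livers (log2 fold change -0.23, SE 0.14, adjusted p = 0.165 by edgeR). F2 passed the threshold when libraries were scaled by their totals alone (-0.30, adjusted p = 0.0376 by edgeR) and without LPS replicate 3 (-0.32, adjusted p = 0.0434 by edgeR). Of other clotting factor proteases, F7 (log2 fold change -0.93), F9 (-0.74) and F10 (-0.67) fell, F11 rose (0.61) and F12 did not pass (-0.26). No ratio to Serpinc1 was taken for them. In both ratios the groups were apart. Over the 7 pairs of genes compared in this way, every 2-sided exact permutation test gave p = 0.1, the smallest that 3 against 3 libraries allow, also when adjusted over the 7 pairs.

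In the protein C pathway the enzyme fell and the value of its cofactor did not pass the test. Proc (chromosome 18, 32123126 to 32139570, minus strand), the precursor of activated protein C, had 165, 181 and 198 CPM in LPS livers, against 477, 386 and 398 CPM in control livers. The groups were well apart, and the log2 fold change was -1.21 (SE 0.13, adjusted p = 3.138e-06). Pros1 (chromosome 16, 62854307 to 62929346, plus strand), protein S, had 104, 123 and 112 CPM in LPS livers, against 115, 119 and 134 CPM in control livers. Those groups overlapped (log2 fold change -0.12, SE 0.12, adjusted p = 0.419). A library therefore held 1.59, 1.47 and 1.76 Proc counts per Pros1 count in LPS livers, against 4.17, 3.24 and 2.96 in control livers, a difference of -1.09 in mean log2 ratio. Of the cofactors that activated protein C cuts, F5 fell to 174, 192 and 199 CPM in LPS livers, against 497, 477 and 428 CPM in control livers (log2 fold change -1.31, SE 0.13, adjusted p = 7.775e-07). For F8 the groups overlapped, and the value of -0.25 on the log2 scale did not pass the test (SE 0.26, adjusted p = 0.431).

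The membrane proteins that switch protein C on rose. Thbd, thrombomodulin, which redirects thrombin to protein C, rose to 41.6, 32.3 and 27.2 CPM in LPS livers, against 4.37, 5.06 and 5.71 CPM in control livers (log2 fold change 2.73, SE 0.19, adjusted p = 3.997e-08). Procr, the endothelial protein C receptor, rose to 4.09, 3.09 and 8.2 CPM in LPS livers, against 0.156, 0.389 and 0.385 CPM in control livers (3.96, SE 0.52, adjusted p = 1.717e-05). The control value of Procr rests on 2, 8 and 6 counts. Per Thbd count there were 3.97, 5.60 and 7.27 Proc counts in LPS livers, against 109, 76.3 and 69.7 in control livers, and per Procr count 40.4, 58.4 and 24.1 in LPS livers, against 3061, 992 and 1034 in control livers. The differences in mean log2 ratio were -3.94 for Thbd and -5.25 for Procr. The 12 endothelial marker genes, all tested, summed to 263 to 384 CPM in LPS and 311 to 349 CPM in control livers, with 2 higher and 4 lower. Their part in these results was not tested.

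**Figure D2:**
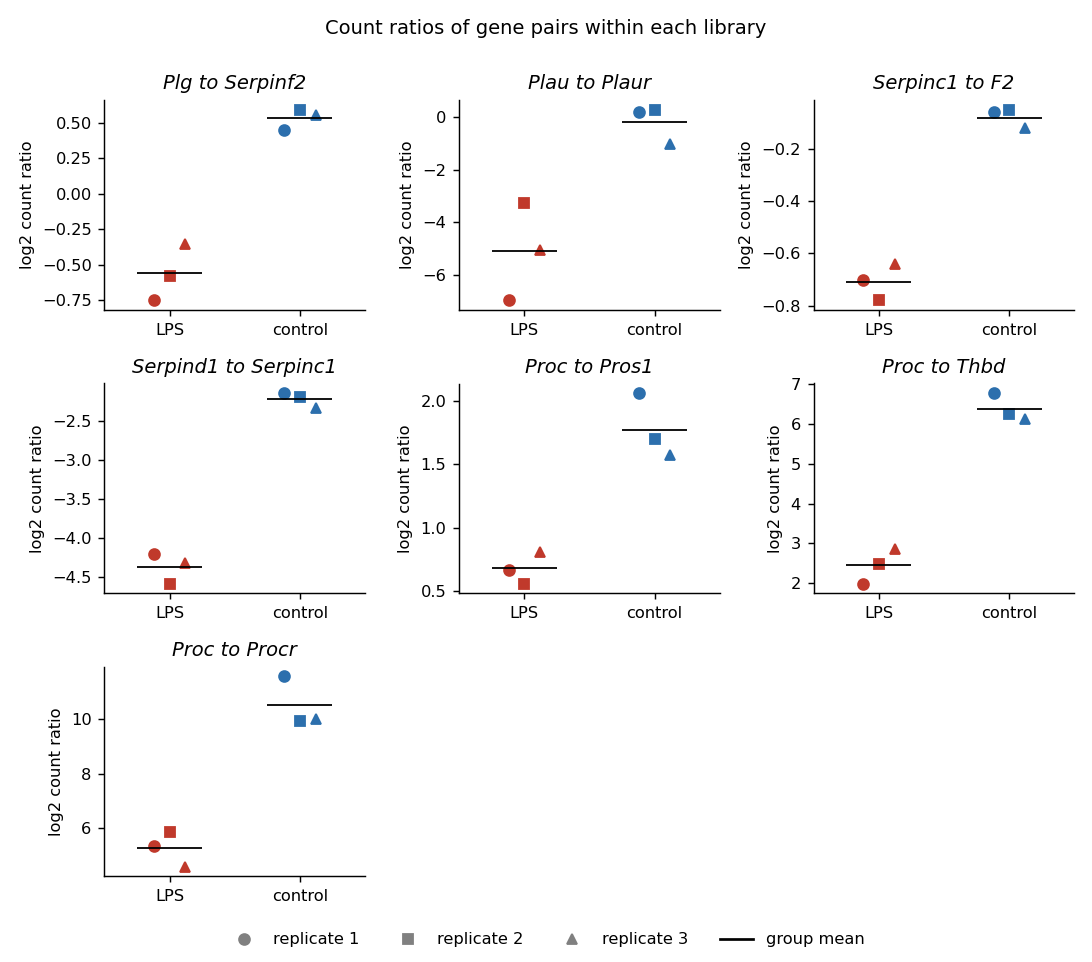
Log2 ratio of the counts of 2 genes within each library (vertical axes differ between panels) for 3 LPS and 3 control livers, with symbols for replicates 1 to 3 and lines for group means. In all 7 pairs the LPS values lie below the control values, with mean differences from -0.63 for Serpinc1 to F2 to -5.25 for Proc to Procr.

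The inhibitor of plasmin rose, and the value of its precursor did not pass the test. Serpinf2 (chromosome 11, 75431736 to 75439501, minus strand), antiplasmin, rose to 997, 1100 and 1309 CPM in LPS livers, against 772, 579 and 717 CPM in control livers. The groups lay close, the lowest LPS value being 1.29 times the highest control value (log2 fold change 0.72, SE 0.15, adjusted p = 9.496e-04). Plg (chromosome 17, 12378609 to 12419384, plus strand), plasminogen, had 592, 738 and 1028 CPM in LPS livers, against 1053, 871 and 1053 CPM in control livers. LPS replicate 3 lay among the control livers, and the log2 fold change of -0.34 (SE 0.18, adjusted p = 0.122) did not pass. It passed without LPS replicate 3 (-0.57, adjusted p = 0.00498), with the replicate block (-0.37, adjusted p = 0.0482), with no count minimum (-0.37, adjusted p = 0.0315) and when libraries were scaled by their totals alone (-0.42, adjusted p = 0.0290). Within libraries the pair stood apart in every liver: there were 0.594, 0.671 and 0.786 Plg counts per Serpinf2 count in LPS livers, against 1.36, 1.51 and 1.47 in control livers. The mean log2 ratio was -0.56 ± 0.20 in LPS and 0.53 ± 0.07 in control livers (SD, n = 3 each), a difference of -1.09.

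Among the 3 LPS livers, replicate 3 had the highest CPM of Serpinc1, Serpind1, Serpinf2, Plg, Plaur and Proc, and replicate 1 the lowest of 6 of the 9 genes. The TMM factor was 0.9092 for LPS replicate 3, against 1.021 and 1.003 for LPS replicates 1 and 2. A lower factor gives higher CPM for all genes of a library, and its part in this order was not tested. The hepatocyte markers, led by Alb, summed to 74528, 84636 and 101351 CPM in LPS replicates 1, 2 and 3, against 128359, 139593 and 127594 CPM in the control replicates. Of the 11 markers found, all were tested, and 10 fell while 1 did not pass. In whole liver RNA, fewer cells of a type and less RNA per cell cannot be told apart, and the part of hepatocyte RNA in the falls of Serpinc1, Serpind1 and Proc was not tested.

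The plasminogen activators were near the limit of detection. Plat (chromosome 8, 22757722 to 22782848, plus strand), the tissue activator, had 17, 18 and 11 counts in LPS livers, against 24, 6 and 8 counts in control livers. That is 1.45, 1.27 and 0.784 CPM in LPS livers, against 1.87, 0.292 and 0.513 CPM in control livers. The 24 counts of control replicate 1 lay above all others. The log2 fold change was 0.45 (SE 0.66, adjusted p = 0.570), and leaving out single libraries moved it between 1.53 (without control replicate 1, adjusted p = 0.0728) and -0.03 (without control replicate 2, adjusted p = 0.972). Plau (chromosome 14, 20836662 to 20843388, plus strand), urokinase, had 2, 30 and 10 counts in LPS livers, against 7, 22 and 4 counts in control livers. In CPM these were 0.171, 2.11 and 0.713 in LPS livers, against 0.546, 1.07 and 0.257 in control livers. The groups overlapped fully and Plau was under the minimum count. With no minimum its log2 fold change was 0.63 (adjusted p = 0.507). Neither activator differed beyond the spread between libraries, which was wide.

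The urokinase receptor, by contrast, was clearly measured in LPS livers. Plaur (chromosome 7, 24460937 to 24475970, plus strand), a membrane protein that holds urokinase at the cell surface, had 21.6, 20.5 and 23.6 CPM in LPS livers, against 0.468, 0.876 and 0.513 CPM in control livers. The LPS libraries held 253, 291 and 331 counts and the control libraries 6, 18 and 8 counts. The LPS livers differed little among themselves, with a coefficient of variation of 7.26%, against 36.1% in the control livers. The log2 fold change was 5.07 (SE 0.26, adjusted p = 1.748e-09), and 135 of the tested genes had a higher one. Per Plaur count there were 0.00791, 0.103 and 0.0302 Plau counts in LPS livers, against 1.17, 1.22 and 0.50 in control livers, ratios that rest on as few as 2 Plau counts.

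Neutrophil markers were, like Plaur, higher in LPS livers. Their sums were 262, 274 and 224 CPM in LPS replicates 1, 2 and 3, and 5.77 to 8.71 CPM in control livers. In the same LPS replicates Plaur had 21.6, 20.5 and 23.6 CPM. All 10 tested of the 12 neutrophil markers rose, led by S100a9 (99.7 ± 10.2 CPM in LPS and 1.22 ± 0.665 CPM in control livers, SD, n = 3 each). Monocyte and macrophage markers summed to 240 to 289 CPM in LPS and 121 to 133 CPM in control livers. Of 9 tested, 5 were higher and 2 lower. Most of the LPS sum was Mpeg1, which averaged 194 CPM in LPS and 31.6 CPM in control livers. The 2 that fell were Csf1r (4.24 CPM in LPS and 37.8 CPM in control livers) and Lyz2 (9.76 and 41.6 CPM). The higher sum thus does not describe the list as a whole. No marker of these 2 lists was at 0 in all libraries, and their part in the rise of Plaur was not tested. The 3 tested genes with the profile most like that of Plaur, among those averaging at least 10 CPM, were Tnfaip3, Gbp3 and Gbp5. Likeness was the root mean square difference in log2 CPM, relative to each gene's control mean, over the 6 libraries, and came to 0.28, 0.30 and 0.30. For Serpind1, which had the lowest log2 fold change of the 8 genes tested here, they were Abat, Cmbl and Ddc, at 0.07, 0.09 and 0.10.

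**Figure D3:**
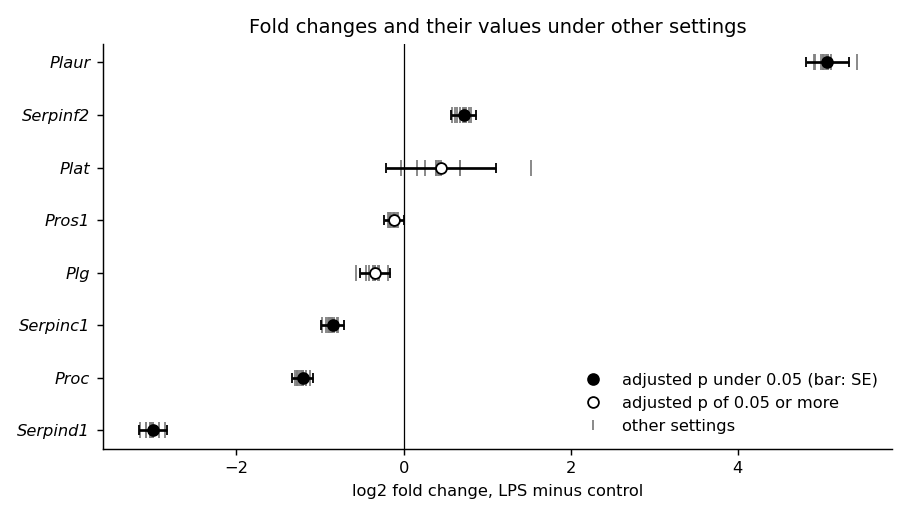
Log2 fold change, LPS minus control, of the 8 tested genes (circles, with SE bars; filled where the adjusted p is under 0.05), with grey ticks for the values under other scalings, filters, tools and left-out libraries. The ticks of Plaur, Serpinf2, Serpinc1, Proc and Serpind1 stay on 1 side of 0, whereas those of Plat run from -0.03 to 1.53.

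Levels of different genes were set side by side per kilobase of the longest principal transcript in GENCODE M21, as CPM per kb. In LPS livers Serpinf2 came first with 518 ± 72.6 CPM per kb, followed by Plg with 285 ± 80.6, Serpinc1 with 165 ± 26.8 and Proc with 115 ± 10.3 CPM per kb (SD, n = 3). Pros1 followed with 34.2 ± 2.88 CPM per kb, Serpind1 with 18.1 ± 3.97 and Plaur with 14.5 ± 1.06 CPM per kb, the last 2 lying within their spread. In control livers Plg (360 ± 38.1 CPM per kb), Serpinf2 (314 ± 45.5), Serpinc1 (297 ± 11.1) and Proc (267 ± 31.6) formed a group in which neighbours overlapped in mean ± SD. Below them came Serpind1 with 145 ± 13.1 and Pros1 with 37.1 ± 3.12 CPM per kb in control livers. Plat and Plau averaged under 1 CPM per kb in LPS and in control livers, and so did Plaur in control livers. The order depends on the length chosen: per kb of the merged exons of all transcripts, Serpinf2 stood above Plg in control livers too, at 297 against 267 CPM per kb. By that length Serpinc1 (173) and Proc (170 CPM per kb) lay nearer to Serpind1 (145) than to Plg in control livers. The group in control livers named above thus rests on the length as well. Serpinc1, for one, has 4970 bases in its principal transcript and 8546 in its merged exons. In LPS livers Serpind1 and Plaur stood at 18.1 and 8.36 CPM per kb of merged exons, so their closeness rests on the length too.

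The partners of these genes were taken from 4 lists of 40 genes, of which 35 were tested. Of these 14 rose and 10 fell, and the median log2 fold change was 0.08. Over all 12078 tested genes 31.3% were higher and 31.0% lower in LPS livers, with a median of 0.01. With so many genes called everywhere, the counts here and in the single lists are not read as a result about the lists. Among 9 tested genes of fibrinolysis 4 rose and 2 fell, the median being 0.26. Cpb2, whose product protects fibrin from plasmin, averaged 1218 ± 80.4 CPM in LPS and 265 ± 12.6 CPM in control livers (log2 fold change 2.20, SE 0.13, adjusted p = 6.512e-09). Vtn, vitronectin, an adhesive plasma protein, averaged 7590 ± 1409 CPM in LPS and 2025 ± 133 CPM in control livers (1.91, SE 0.16, adjusted p = 2.701e-07). Anxa2 (1.30), a cell-surface binder of plasminogen and its tissue activator, and Thbs1 (1.47), thrombospondin, also rose. The 2 that fell were Hrg, a plasma protein that binds plasminogen, with 278 ± 73.6 CPM in LPS and 658 ± 29.6 CPM in control livers (-1.24, SE 0.17, adjusted p = 2.204e-05), and S100a10 (-0.50), the partner of Anxa2. Anxa2, Thbs1 and S100a10 were named after their values were seen.

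Of the 8 other anticoagulants 4 rose and 2 fell, the median log2 fold change being 1.35. Besides Thbd and Procr, the protein Z-dependent inhibitor Serpina10 rose to 700 ± 140 CPM in LPS, against 130 ± 8.94 CPM in control livers (2.43, SE 0.16, adjusted p = 1.666e-08). Its cofactor protein Z, Proz, fell to 47.5 ± 8.47 CPM in LPS, against 211 ± 19.6 CPM in control livers (-2.15, SE 0.15, adjusted p = 3.138e-08). Serpina5, the protein C inhibitor, rose as well (3.36, SE 0.79), on 20, 18 and 36 counts in LPS livers, against 6, 0 and 2 counts in control livers, and Tfpi2, a Kunitz-type protease inhibitor, fell (-1.30, SE 0.21). C4bp, the complement regulator that carries part of protein S in human plasma, averaged 558 ± 38.9 CPM in LPS and 463 ± 25.5 CPM in control livers (0.27, SE 0.12, adjusted p = 0.0727), and passed with DESeq2 (0.26, adjusted p = 0.0410). Of 17 tested procoagulant genes 6 rose and 6 fell, the median being -0.24. Those with the smallest adjusted p were Klkb1, plasma prekallikrein (17.0 ± 3.72 CPM in LPS and 207 ± 26.4 CPM in control livers, log2 fold change -3.61), and the fibrinogen chains Fgg (3.18) and Fga (3.21). Of 4 receptors of thrombin and related proteases only F2r had enough counts to be tested (0.19, SE 0.17, adjusted p = 0.362).

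**Figure D4:**
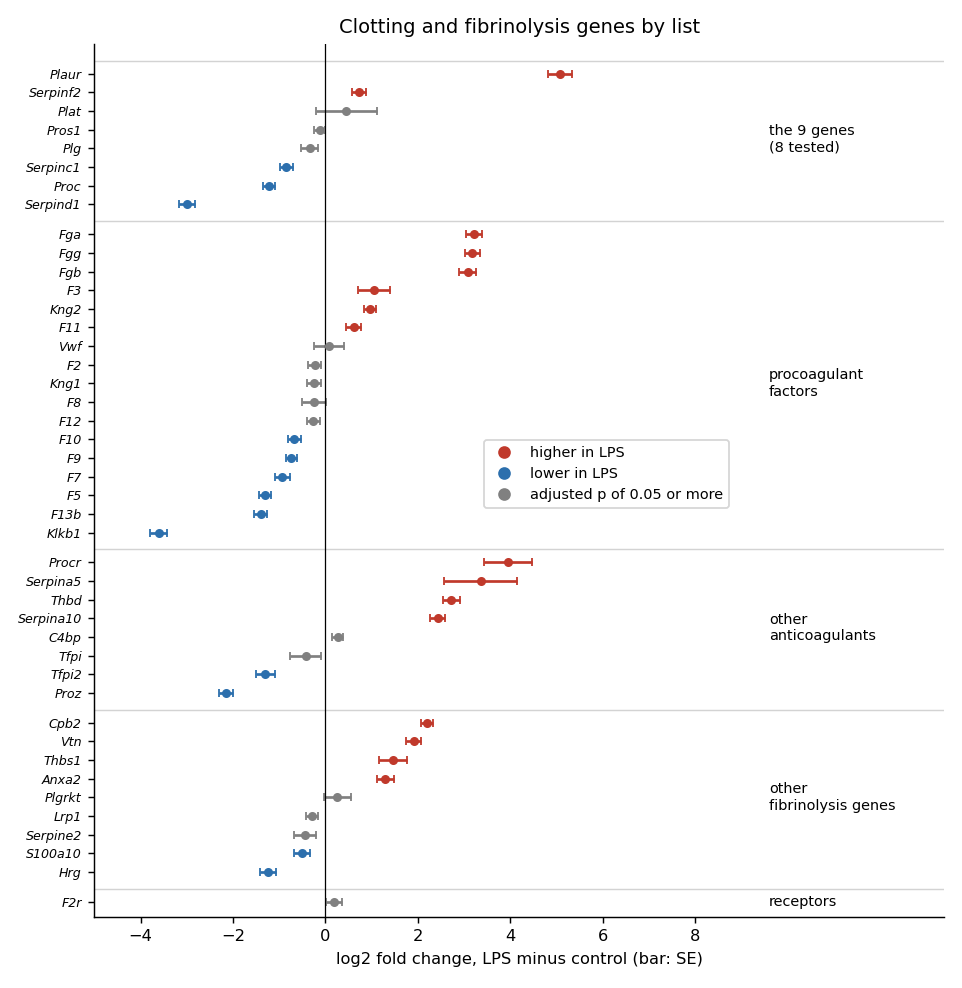
Log2 fold change, LPS minus control, with SE, of the tested genes of the 9 described here and of 4 lists of partners; red marks genes higher and blue genes lower in LPS livers at an adjusted p under 0.05. Plaur lies farthest to the right at 5.07, and Klkb1 farthest to the left at -3.61.

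Total counts ran from 11488525 to 15437785 in LPS libraries and from 12577993 to 20282004 in control libraries. Kupffer cell markers summed to 273 to 311 CPM in LPS and 526 to 555 CPM in control livers. Most of that was C6 (230 ± 5.62 CPM in LPS and 329 ± 13.1 CPM in control livers), and the median log2 fold change of the list was -2.21. Platelet and megakaryocyte markers summed to 24 to 24.4 CPM in LPS and 10.9 to 11.8 CPM in control livers, with Gp1bb at 0 in all. Of the tested genes of these lists, 1 rose and 6 fell of 7 for Kupffer cells, and 2 rose of 4 for platelets and megakaryocytes. The sums of stellate cell markers were 232 to 276 CPM in LPS and 264 to 280 CPM in control livers, most of it Dcn, while 1 rose and 7 fell of the 10 tested, with a median log2 fold change of -1.54. Biliary markers summed to 118 to 141 CPM in LPS and 20.2 to 35.9 CPM in control livers, most of it Spp1, with 3 higher and 1, Krt19, lower of 6 tested. T and NK cell markers summed to 11.5 to 11.7 CPM in LPS and 2.87 to 6.24 CPM in control livers, and of 5 tested 1 rose, Gzmb (5.34 CPM in LPS and 0.203 CPM in control livers on average). B cell markers summed to 6.40 to 8.16 CPM in LPS and 9.36 to 13.6 CPM in control livers, with 2 lower of 5 tested. In GENCODE M21, exons of Serpinc1 share 2942 bases with Zbtb37 and those of Plg 420 bases with Slc22a3, both on the opposite strand. Zbtb37 averaged 35.4 ± 7.80 CPM in LPS and 10.7 ± 3.15 CPM in control livers, and Slc22a3 2.92 ± 0.760 CPM in LPS and 13 ± 3.05 CPM in control livers, and the labels do not say to which gene reads in shared exons were counted.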

How the data were processed

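Whole liver RNA was sequenced in 3 LPS and 3 control libraries, with 1 table each. The authors' deposited values are unnormalized whole-number counts, 1 per gene. Per the submitters' processing notes, bcl2fastq 2.0, HISAT2, StringTie, DESeq2, limma and the build mm10 were used, with no roles given. The sources used here do not give the counting tool, annotation or strand setting. Of the 22488 rows, 20722 were named by Entrez identifier from RefSeq (GRCm38.p6), carrying 98.99% of counts. Between 88.7% and 90.4% of the values from 1 to 19 in a library were even, against 48.5% to 51.5% at 1000 or more, so low counts are not single independent molecules and no counting intervals are given.

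LPS was compared with control in R 4.3.3 with edgeR 4.0.16 (TMM, filterByExpr with minimum count 10 and minimum total 15, quasi-likelihood F test, 2-sided, Benjamini-Hochberg over 12078 genes, threshold 0.05), on the deposited counts. CPM use the TMM library sizes. SE came from the fold change and its F statistic. The biological coefficient of variation was 16.4%. The scripts were tested on simulated data. Replicates of a group were distinct libraries (chi-square per degree of freedom 12.3 to 33.1). Sample titles number the libraries of each group as repeat experiments 1 to 3. The labels do not say that a number marks a shared litter, batch or day, so it was not used as a block. The deviations of same-numbered libraries from their group means correlated at -7.45e-04, 0.104 and 0.0352. Those of differently numbered libraries correlated at -0.121 to 0.0741, so these values do not settle whether a number was shared. Alternatives were DESeq2 1.42.0, its size factors in edgeR, library totals, no filter, the replicate block, each library left out and, chosen after seeing the data, halved counts. Profiles were compared on log2(CPM + 0.1). The genes and lists were chosen with earlier results of these data known. Named partners are, in each list, the 3 genes with the smallest adjusted p, the most abundant one and those of the fixed pairs. Other named genes were chosen after their values were seen. One listed hepatocyte marker symbol, Tf, matched no row. One partner gene and the pairs that use it are not reported here.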

Additional observations from a re-analysis of the deposited data

How the results depend on the processing

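The 5 called genes kept their direction and their call under all 12 alternatives, with log2 fold changes from 4.91 to 5.42 for Plaur, 0.58 to 0.81 for Serpinf2, -0.98 to -0.79 for Serpinc1, -1.30 to -1.12 for Proc and -3.16 to -2.85 for Serpind1. Pros1 stayed uncalled, between -0.19 and -0.07. Plg passed the threshold with library totals as the only scaling (-0.42), with no filter (-0.37) and with the replicate block (-0.37), and ran from -0.57 to -0.19 with a library left out, passing without LPS replicate 3. The replicate block changed no other call among the 8 tested genes. Plat ran from -0.03 to 1.53 with a library left out, and the cause was not tested. With halved counts Plat did not pass the filter, and in the other fits it was not called. Plau, tested in some fits only, ranged from 0.27 to 1.11. In all 7 within-library pairs the difference kept its sign with 1 count added to both genes and with each library left out. Among partner genes, the number higher ran from 13 to 15 and the number lower from 10 to 14. Among the partners named by the rule, F2 passed with library totals (-0.30) and without LPS replicate 3 (-0.32), C4bp passed with DESeq2 (0.26), and the others kept their calls. Plat, Plau and the control values of Plaur and Procr rest on few counts, and the part of depth in their spread was not tested.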
